A study of Homo sapiens with 9 samples.

Results

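The sgRNAs described here were those against 16 genes of purine and nucleoside diphosphate metabolism in a pooled kinome knockout screen of RH4 cells. They were taken from the count table by gene name. The 16 genes (ADK, GUK1, DGUOK, AK1, AK4, AK5, AK7, PRPS1, PRPS2 and NME1 to NME7) had 4 sgRNAs each, which made 64 of the 3152 sgRNAs in the library and 16 of its 763 targeted genes. All 64 are accounted for below, and 63 of them passed the minimum of 30 reads on average over the libraries. The exception was the fourth sgRNA against GUK1.

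Cells build purine nucleotides on phosphoribosyl pyrophosphate (PRPP), or recycle bases and nucleosides through salvage. Nucleoside kinases make monophosphates, and adenylate and guanylate kinases carry these to diphosphates. Nucleoside diphosphate kinases such as NME1 and NME2 pass a phosphate to diphosphates, giving the triphosphates used for RNA, DNA and signalling. Whether each member of the NME family has that activity was not tested. Pralatrexate is an antifolate that inhibits dihydrofolate reductase. Reduced folates donate carbons both to the purine ring and to thymidylate.

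RH4 is a rhabdomyosarcoma line with a PAX3::FOXO1 fusion, and every group carried that fusion and the Brunello kinome library, introduced by lentivirus at 1000× coverage. Puromycin at 0.25 µg/ml began 48 h after infection and lasted 72 h, and the baseline cells were harvested at its end (the study's main text gives a longer selection, so the interval is uncertain). The other cells recovered for 72 h and then grew for 10 days in vehicle or in 1.5 nM pralatrexate. Each of the 3 groups had 3 libraries, numbered as repeats in the labels, and the study calls them both cultures and technical replicates. The p-values therefore reflect library-to-library spread that may be only technical. All results come from 1 cell line. The reads count guides in genomic DNA, so neither the identity of the line nor the loss of each gene product could be checked from them. The share of reads taken by a guide tracks how many of the cells hold it.

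Libraries held 2468136 to 4602712 reads, and the sgRNAs against the 16 genes took 2.07 to 2.17% of them. At baseline these sgRNAs had a median of 316 CPM (reads scaled to a common library size), against 309.6 over the whole library. Their lowest and highest baseline values were 13.7 and 627 CPM. The 99 non-targeting sgRNAs that passed the minimum, which by name target no gene, had a higher median change by day 10 than targeting sgRNAs. Their median log2 fold change was 0.31 in vehicle against baseline and 0.34 in pralatrexate against baseline, where the targeting sgRNAs had 0.01 in both. Single non-targeting sgRNAs ran from -0.05 to 0.67 in vehicle and from -0.17 to 0.66 in pralatrexate, both against baseline. Between pralatrexate and vehicle both kinds had medians of 0.00. What set the difference in medians against baseline was not tested. Changes below are relative to the bulk of the library, and the value relative to the non-targeting median is given where it bears on a result.

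The first comparison, vehicle against baseline, asked which of these knockouts were depleted or retained in the absence of drug. Knockouts of GUK1 and NME6 were lost. GUK1, the guanylate kinase that turns GMP into GDP, fell by 2.16 ± 0.91 on the log2 scale (mean and SD over 3 sgRNAs), to 0.224 of its baseline level. NME6, a mitochondrial member of the nucleoside diphosphate kinase family, fell by 1.03 ± 0.20 (4 sgRNAs), to 0.490 of its baseline level. The other 14 genes did not pass, with changes from -0.24 to 0.26. By robust rank aggregation of the edgeR p-values, with Benjamini-Hochberg adjustment over 763 genes (FDR), 2 of 16 genes were lower, beside 6.68% of all genes. None was higher, beside 0.393% of all genes, and 0 of 16 had an unadjusted p under 0.05 in that direction (7.86% of all genes). limma on gene means also called none higher (9.04% of all genes), while edgeR on the summed reads of each gene called 3 (DGUOK, NME5 and NME7), beside 14.4% of all genes. The median change of the 16 genes was 0.00, against 0.02 over all genes.

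At the level of single sgRNAs, edgeR's quasi-likelihood test with Benjamini-Hochberg adjustment over 3145 sgRNAs called 8 of 63 lower (12.8% of the library) and 2 higher (6.26% of the library). The share called higher includes non-targeting sgRNAs, of which 38 of 99 were called higher and 0 lower. Of targeting sgRNAs alone, 159 of 3046 were called higher. Scaled on the non-targeting sgRNAs instead, 32 of 63 were lower (44.2% of the library) and 0 higher (0.413%). The 8 were sgRNAs 1 to 3 of GUK1, all 4 of NME6 and sgRNA 2 of AK4, numbered in table order within each gene. Of the 16 genes, 3 had every vehicle library below every baseline library (GUK1, NME6 and AK4), beside 24.4% of all genes. One, NME7, had every vehicle library above, beside 19.5%.

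GUK1 spans chromosome 1 from 228139962 to 228148984 on the plus strand (GRCh38, the gene span and not the site of any sgRNA). Its level, the mean log2 CPM of sgRNAs 1 to 3, was 8.43, 8.40 and 8.61 in the baseline libraries, 6.16, 6.45 and 6.29 in vehicle and 6.52, 6.19 and 5.93 in pralatrexate. All 6 day 10 libraries lay below all 3 baseline libraries, and the vehicle and pralatrexate libraries overlapped. The loss from baseline to vehicle had an FDR of 0.00333 by rank aggregation of edgeR p-values. Relative to the non-targeting median the change was -2.47.

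The GUK1 sgRNAs fell by unequal amounts. sgRNA 1 had 2065, 2105 and 1933 reads at baseline, 470, 785 and 654 in vehicle and 696, 365 and 663 in pralatrexate. sgRNA 2 had 1475, 1610 and 1375 reads at baseline, 528, 574 and 460 in vehicle and 608, 411 and 525 in pralatrexate. sgRNA 3 had 889, 943 and 913 reads at baseline, 47, 140 and 133 in vehicle and 91, 38 and 48 in pralatrexate. For each of them the baseline libraries stood apart from every day 10 library. The fitted log2 changes from baseline to vehicle were -1.74 (SE 0.14), -1.53 (SE 0.18) and -3.20 (SE 0.30), with edgeR FDRs of 1.7e-10, 7.45e-08 and 1.61e-09. Thus sgRNA 3 left 0.109 of its baseline level where sgRNAs 1 and 2 left 0.299 and 0.346. Without sgRNA 3 the gene's change was -1.63.

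The fourth GUK1 sgRNA was scarce from the start. It had 76, 70 and 22 reads at baseline, a mean of 13.7 CPM that ranked within the lowest 0.286% of the library's sgRNAs. It had 0, 15 and 8 reads in vehicle and 11, 14 and 51 in pralatrexate. The 0 among 3194504 reads allows a level of up to 0.939 CPM (3 reads), for counting error only. Every vehicle library lay below every baseline library, while the pralatrexate libraries, spread widely, overlapped both. With no minimum on reads, edgeR gave this sgRNA a log2 change of -2.90 (SE 0.84, FDR 0.0139) from baseline to vehicle. From vehicle to pralatrexate it gave 1.93 (SE 0.89, FDR 0.854), and 1.18 (SE 1.09) without pralatrexate library 3. Counting this sgRNA in turned the change of GUK1 between pralatrexate and vehicle from -0.10 to 0.41, neither of which passed. The loss of GUK1 against baseline passed with or without it.

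NME6 spans chromosome 3 from 48290722 to 48301685 on the minus strand, where its span also overlaps ZNF589 outside coding sequence. Its level was 8.49, 8.55 and 8.34 log2 CPM at baseline, 7.45, 7.40 and 7.44 in vehicle and 7.24, 7.27 and 7.33 in pralatrexate. The 3 groups did not overlap, and baseline lay furthest from the others. From baseline to vehicle the FDR was 0.00538 by rank aggregation of edgeR p-values, and the change relative to the non-targeting median was -1.34.

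The 4 NME6 sgRNAs moved by similar amounts. sgRNA 1 had 1161, 1389 and 952 reads at baseline, 363, 713 and 592 in vehicle and 453, 339 and 506 in pralatrexate. sgRNA 2 had 1984, 2014 and 1428 reads at baseline, 796, 925 and 851 in vehicle and 889, 454 and 879 in pralatrexate. In both the baseline reads stood above all day 10 reads. sgRNA 3 had 1756, 1666 and 1022 reads at baseline, 493, 752 and 800 in vehicle and 506, 376 and 640 in pralatrexate. sgRNA 4 had 1086, 1525 and 1103 reads at baseline, 701, 725 and 842 in vehicle and 488, 363 and 773 in pralatrexate. The same separation held for these. The fitted log2 changes from baseline to vehicle were -1.13, -1.09, -1.16 and -0.73, with SEs of 0.14 to 0.17 and edgeR FDRs from 5.61e-07 to 0.00226.

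The PRPP synthetases PRPS1 and PRPS2 changed by 0.06 and 0.09 between baseline and vehicle. ADK, which phosphorylates adenosine, had -0.03, and DGUOK, the mitochondrial deoxyguanosine kinase, had 0.26. None of these passed the rank aggregation. DGUOK had the highest value of the 16, with 4 of 4 sgRNAs above 0 (0.07, 0.38, 0.29 and 0.32), none of them past the threshold. edgeR on summed reads gave DGUOK 0.25 with an FDR of 0.012, and scaling on the non-targeting sgRNAs turned its change to -0.06.

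The adenylate kinases, which balance AMP, ADP and ATP, gave -0.24 for AK4 of the mitochondrial matrix, 0.03 for AK5, 0.04 for the cytosolic AK1 and 0.21 for AK7, known from cilia. The level of AK4 was 7.99, 8.04 and 8.01 log2 CPM at baseline, 7.65, 7.85 and 7.80 in vehicle and 7.79, 7.79 and 7.80 in pralatrexate. No day 10 library reached the baseline range. Rank aggregation gave AK4 an FDR of 0.969, whereas limma on gene means (-0.25, FDR 0.0123) and edgeR on summed reads (-0.23, FDR 0.012) both called it lower, as they did 19.8% and 21% of all genes. Its sgRNA 2 had 245, 270.05 and 222 CPM at baseline, 150.4, 182 and 180.0 in vehicle and 146, 231 and 185 in pralatrexate. The vehicle values lay below the baseline values, and 1 pralatrexate value lay within them. That sgRNA changed by -0.52 (edgeR FDR 0.0358), and the other 3 of AK4 by -0.12, -0.28 and -0.05. Its call was lost without baseline library 1 or 2 and without vehicle library 1 or 3 (FDRs of 0.0528 to 0.158).

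Apart from NME6, the NME genes gave no gene call by rank aggregation. NME1 and NME2, the main cytosolic enzymes, had -0.11 and -0.03. NME3, found at the mitochondrial outer membrane, had -0.04, and the mitochondrial NME4 had -0.10. NME5, a cilia protein, had 0.19, and NME7, associated with microtubule nucleation, had 0.18. NME1 and NME2 are neighbours on chromosome 17 (51153559 to 51162428 and 51165435 to 51171744) and share coding bases with the read-through gene NME1-NME2. The library carried 4 separate sgRNAs named for that read-through, and the gene-level mean was 0.20, with no call by rank aggregation. Of the 4, sgRNA 2 was higher (0.39, edgeR FDR 0.0229), where the non-targeting median was 0.31. Their log2 CPM level was 7.73, 7.73 and 7.68 at baseline, 7.91, 7.82 and 7.98 in vehicle and 7.82, 7.78 and 7.93 in pralatrexate. Both day 10 groups lay above the baseline libraries, beside 19.5% of all genes for vehicle and 20.3% for pralatrexate. Relative to the non-targeting median, the read-through changed from baseline by -0.12 in vehicle and -0.19 in pralatrexate. Where the sgRNAs of NME1, NME2 and the read-through cut was not analysed here. So it is not known whether 1 sgRNA can reach more than 1 of these genes. NME4 likewise overlaps coding sequence of DECR2.

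Both sgRNAs called higher in vehicle were single members of their genes. sgRNA 4 of NME3 had 219, 184 and 229 CPM at baseline, 339, 328 and 245 in vehicle and 311, 206 and 293 in pralatrexate. Its vehicle values stood above baseline and its pralatrexate values overlapped it. The change was 0.53 (edgeR FDR 0.0218), and the other 3 sgRNAs of NME3 had -0.31, -0.24 and -0.14. The level of NME3 overlapped between all groups, at 7.59, 7.37 and 7.41 log2 CPM at baseline, 7.58, 7.31 and 7.37 in vehicle and 7.32, 7.10 and 7.56 in pralatrexate.

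sgRNA 1 of NME5 had 274, 284 and 307 CPM at baseline, 355, 396 and 391 in vehicle and 338, 394 and 349 in pralatrexate. All day 10 values exceeded all baseline values. It changed by 0.40 (edgeR FDR 0.0183), and the others of NME5 by -0.09, 0.34 and 0.10. The level of NME5 was 7.75, 7.92 and 7.75 log2 CPM at baseline, 7.88, 8.10 and 7.995 in vehicle and 7.88, 7.91 and 7.90 in pralatrexate, with overlap between the groups. With scaling on the non-targeting sgRNAs neither sgRNA passed, at 0.20 for NME3 and 0.07 for NME5. Each also lost its call in some fits that left out 1 library. For NME3 these were the fits without baseline library 2 or without vehicle library 1 or 2, and for NME5 those without baseline library 1 or 2 or without vehicle library 2 or 3.

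All 16 genes lay below the non-targeting median in vehicle against baseline, as did 98.4% of the library's genes. For the 14 genes with no call, the change relative to that median ran from -0.56 (AK4) to -0.05 (DGUOK), and 50 of their 56 sgRNAs lay below it.

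The second comparison, pralatrexate against vehicle, asked which of these knockouts cost the cells more or less in the presence of the antifolate. No gene and no sgRNA of the 16 passed. Gene changes ran from -0.15 (NME6) to 0.10 (PRPS1) with a median of -0.04, against 0.01 over all genes. By rank aggregation, 0 of 16 genes were lower (0.524% of all genes) and 0 were higher (0% of all genes). At an unadjusted p under 0.05 there were 0 genes lower (3.93% of all genes) and 2 higher (5.37% of all genes), ADK (FDR 0.762) and PRPS1 (FDR 0.924). edgeR called 0 of 63 sgRNAs lower (0.0318% of the library) and 0 higher (0% of the library), and 3 had an unadjusted p under 0.05 in either direction, where 5.61% of all targeting sgRNAs did. DESeq2 also called none of the 63 (0.318% of the library lower and 0.0954% higher). Of the 16 genes none was called by limma on gene means (0.524% of all genes lower and 0.131% higher) or by edgeR on summed reads (0.786% lower and 0.131% higher). The 95% intervals from limma on gene means all included 0, had a median half-width of 0.17 and reached from -0.33 (GUK1) to 0.25 (PRPS1) at their widest. Differences within such widths were not detectable with 3 libraries a group. The intervals are not adjusted over the 763 genes as the calls are, so larger differences may also go uncalled.

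NME6 was the only one of the 16 genes with every pralatrexate library below every vehicle library, beside 3.41% of all genes, and 0 of 16 had every library above, beside 3.67%. Its change was -0.15 ± 0.12, with 4 of 4 sgRNAs below 0 (-0.09, -0.02, -0.19 and -0.30) and an FDR of 0.983 by rank aggregation. limma on gene means gave -0.15 with a 95% interval of -0.30 to 0.00 (FDR 0.923). Within same-numbered libraries the differences were -0.21, -0.13 and -0.11.

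GUK1 differed by -0.10 ± 0.42 between pralatrexate and vehicle (FDR 0.983). Its sgRNAs did not share a direction, at 0.08, 0.20 and -0.57, and neither did its same-numbered libraries, at 0.36, -0.26 and -0.36. The 95% interval from limma on gene means was -0.33 to 0.16.

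ADK and PRPS1 held the 3 sgRNAs with an unadjusted p under 0.05, a number near the library's share. sgRNA 2 of ADK had 418, 344 and 419 CPM in vehicle and 509, 459 and 448 in pralatrexate, which did not overlap. sgRNA 3 of ADK had 311, 622 and 375 CPM in vehicle and 279, 260.4 and 405 in pralatrexate, and its high value was that of vehicle library 2. The changes were 0.26 (edgeR FDR 0.857) and -0.47 (edgeR FDR 0.8196), in opposite directions. Over its 4 sgRNAs ADK had 0.01 ± 0.34.

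For PRPS1 the level was 8.62, 8.80 and 8.70 log2 CPM at baseline, 8.82, 8.72 and 8.76 in vehicle and 8.90, 8.92 and 8.77 in pralatrexate, with overlap between neighbouring groups. Its sgRNA 1 had 482, 620 and 574 CPM at baseline, 618, 569.9 and 596 in vehicle and 719, 807 and 654 in pralatrexate. The pralatrexate values stood above all others. The difference from vehicle was 0.29 (SE 0.11, edgeR FDR 0.806), and the other 3 sgRNAs had 0.08, 0.04 and -0.01.

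The remaining members differed between pralatrexate and vehicle by -0.11 (AK7), -0.10 (NME5), -0.09 (AK5 and NME3), -0.06 (NME1), -0.05 (NME2), -0.02 (NME7), -0.01 (DGUOK), 0.00 (AK1), 0.01 (PRPS2), 0.04 (AK4) and 0.06 (NME4). The libraries of both groups overlapped for every one of them. Within same-numbered libraries, AK5 (-0.10, -0.09 and -0.11) and NME5 (-0.01, -0.19 and -0.09) were lower in pralatrexate each time. With NME6 that made 3 of 16 genes lower in every such pair, beside 12.6% of all genes, and PRPS1 alone was higher in every pair (0.08, 0.20 and 0.01), beside 13.5%. The read-through NME1-NME2 had -0.05.

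The third comparison, pralatrexate against baseline, covers the same interval with drug. It shares its baseline libraries with the first comparison and its pralatrexate libraries with the second, so it gives no independent count. GUK1 fell by 2.25 ± 1.33 (FDR 0.00453), to 0.2096 of baseline, and NME6 fell by 1.18 ± 0.14 (FDR 0.00348), to 0.442, by rank aggregation of edgeR p-values. Thus 2 of 16 genes were lower (7.21% of all genes) and 0 higher (0.262% of all genes), with 2 at an unadjusted p under 0.05 in the higher direction (NME7 and DGUOK, beside 8.78% of all genes). limma on gene means called none higher (9.83% of all genes) and edgeR on summed reads called 3 (DGUOK, PRPS1 and NME7), beside 16.1% of all genes. On summed reads 4 were lower (GUK1, NME6, AK4 and NME1), beside 22.8% of all genes. The groups did not overlap for 3 genes that were lower (GUK1, NME6 and AK4, beside 25.6% of all genes) and for 0 that were higher (20.3%).

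Of the 63 sgRNAs, edgeR called 7 lower in pralatrexate than at baseline (13.1% of the library) and 2 higher (5.98%), or 30 (41.7%) and 0 (0.286%) when scaled on the non-targeting sgRNAs. Before that scaling, 35 of the 99 non-targeting sgRNAs were called higher and 0 lower, beside 153 of 3046 targeting sgRNAs higher. The 7 were sgRNAs 1 to 3 of GUK1, with -1.66, -1.33 and -3.78, and the 4 of NME6, with -1.23, -1.12, -1.34 and -1.03. For AK4 the gene had -0.21, again without a call by rank aggregation (FDR 0.951) and with one by limma on gene means (FDR 0.0239), which called 19.9% of all genes lower.

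The pair called higher were sgRNA 1 of PRPS1 (0.38, edgeR FDR 0.0114) and sgRNA 1 of NME4 (0.37, edgeR FDR 0.0364). The NME4 sgRNA had 358, 307 and 294 CPM at baseline, 370.2, 320 and 417 in vehicle and 417, 419 and 402 in pralatrexate. Its pralatrexate values lay above baseline, and its vehicle values overlapped both. The level of NME4 overlapped between the groups, at 8.32, 8.13 and 8.01 log2 CPM at baseline, 7.99, 8.05 and 8.13 in vehicle and 8.10, 8.28 and 7.92 in pralatrexate. With scaling on the non-targeting sgRNAs neither sgRNA passed, at 0.07 for PRPS1 and 0.06 for NME4. The NME4 call was also lost without baseline library 2 or 3 and without each pralatrexate library, and the PRPS1 call without baseline library 1 or pralatrexate library 2.

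AK3, AK8, AK9, PRPS1L1, NME8, NME9 and NME1-NME2 are 7 further purine and nucleoside diphosphate genes in the library. Rank aggregation called 0 of the 7 in any comparison, with gene changes from -0.10 to 0.24 between baseline and vehicle. At an unadjusted rank aggregation p under 0.05, 0 of them were lower there (115 of all 763 genes) and 1 higher (7.86%). limma on gene means called none of them there (19.8% of all genes lower and 9.04% higher). edgeR on summed reads called 0 lower (21%) and 2 higher (14.4%). Of their 28 sgRNAs, edgeR called 0 lower (12.8% of the library) and 2 higher (6.26%). In pralatrexate against baseline, limma called 0 genes lower (19.9% of all genes) and 1 higher (9.83%). Summed reads called 0 lower (22.8%) and 1 higher (16.1%). Of the 28 sgRNAs, 0 were lower (13.1% of the library) and 1 higher (5.98%). Of 10 pyrimidine enzymes in the library, 2 were lower in vehicle than at baseline by rank aggregation, beside 6.68% of all genes. DTYMK, the thymidylate kinase that turns dTMP into dTDP, fell by 2.42 ± 1.23 (FDR 0.00333), and CAD, which catalyses the opening steps of pyrimidine synthesis, fell by 1.23 ± 0.66 (FDR 0.00495). Both were also lower in pralatrexate than at baseline (-2.33 and -0.96), and neither passed between pralatrexate and vehicle (0.09 and 0.27). The CAD difference had an unadjusted p of 0.000234 by rank aggregation (FDR 0.178). For CAD, every pralatrexate library lay above every vehicle library, beside 3.67% of all genes. At an unadjusted rank aggregation p under 0.05, 1 of the 10 enzymes was lower (3.93% of all genes) and 2 higher (5.37%). CMPK1, which phosphorylates CMP and UMP and is named after its values were seen, had -1.28 ± 1.28 between baseline and vehicle without passing (FDR 0.0831). It was 1 of 4 pyrimidine enzymes with every vehicle library below every baseline library, beside 24.4% of all genes.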

How the data were processed

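The table deposited by the authors gave raw, unnormalized read counts of each sgRNA in 9 libraries of amplified genomic DNA. The submitters' processing notes name Bowtie 1.0.0. How reads were counted is not given in the sources used here. PCR copies counted as separate reads, so limits cover counting error only. The authors' gene tables hold their own comparisons (scores, p-values, fold changes) and were not used.

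sgRNAs averaging under 30 reads over the 9 libraries were removed (7, 1 of them a member). The rest were fitted in edgeR 4.0.16 (quasi-likelihood, TMM, R 4.3.3) with group as the only term. The coefficient of variation between libraries of a group was 13.2% (common dispersion 0.0173). The study used MAGeCK-RRA. That program was not installed, so robust rank aggregation was run on one-sided edgeR p-values (those under 0.25 entered the score), with p computed from the distribution of ordered ranks and Benjamini-Hochberg adjustment over 763 genes (threshold 0.05). Gene changes are means of sgRNA log2 fold changes, given with the SD across sgRNAs. Levels are mean log2 CPM with a prior count of 2. Alternatives used limma 3.58.1, DESeq2 1.42.0, edgeR on summed reads, other scalings, filters and sample sets, and leaving out libraries or sgRNAs. Same-numbered vehicle and pralatrexate libraries deviated together (r of 0.17, 0.20 and 0.19 across sgRNAs), which those of baseline did not (-0.03 to 0.07).

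All 16 members are named, and values per library are given for genes with a gene or sgRNA call and, in ADK, for sgRNAs chosen after their values were seen. Members and lists were chosen with earlier results of these data known. Gene spans are from GENCODE on GRCh38. Guide sequences were not analysed here. Some results are not reported here.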

Additional observations from a re-analysis of the deposited data

How the results depend on the processing

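The gene calls of GUK1 and NME6 against baseline passed in every alternative that gave a test, including leaving out any library or any of their sgRNAs, and no call reversed. The absence of a call between pralatrexate and vehicle held in all alternatives. Between vehicle and baseline, the 8 sgRNAs called lower became 32 with non-targeting scaling, which moved the median of all genes to -0.31. The 2 called higher became 0 with that scaling, 4 with DESeq2, 4 with the replicate block, and 1 to 5 when 1 library was left out, not always including those 2. Genes called higher went from 0 to 3 on summed reads. Between pralatrexate and baseline, the 7 sgRNAs called lower became 30 with non-targeting scaling (median of all genes -0.30), the 2 called higher became 0 with it and 1 in each fit without 1 library (without pralatrexate library 2 this was sgRNA 4 of NME3, not one of the 2), and summed reads called 4 genes lower (AK4 and NME1 added) and 3 higher. Over all genes, rank aggregation called 51 lower and 3 higher in vehicle, against 151 and 69 for limma on gene means and 160 and 110 on summed reads. In pralatrexate against baseline the counts were 55 and 2, 152 and 75, and 174 and 123. Over all sgRNAs, non-targeting scaling called 1389 lower and 13 higher in vehicle, where 401 and 197 were called before, and 1313 and 9 in pralatrexate, where 412 and 188 were. DESeq2 called 336 and 315 higher. Between pralatrexate and vehicle, over the library, it called 10 sgRNAs lower and 3 higher against 1 and 0, summed reads called 6 genes lower and 1 higher against 4 and 0, and leaving out 1 library gave 1 to 5 genes lower. The causes were not tested, beyond the shift that the scaling itself sets.

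The numbers pair the vehicle and pralatrexate libraries by their correlation alone. With the replicate block 0 of 63 sgRNAs and 0 of 16 genes were called between them, and it changed no other count of calls among the members by over 1.5 times except the 4 above. Few reads limit the fourth GUK1 sgRNA, whose difference between pralatrexate and vehicle fell from 1.93 to 1.18 without pralatrexate library 3, an alternative chosen after seeing the data. The change of GUK1 in that comparison, uncalled throughout, was 0.41 with no filter and 0.33 with both.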
